A study of Mus musculus with 7 samples.

Results

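The branched-chain amino acid breakdown enzymes are described here through 10 genes, measured in a fast-twitch mouse leg muscle, the extensor digitorum longus. Each gene was chosen by its symbol on the array platform, and all 10 had a probe set, among 19938 genes with a probe set of 1 symbol. RNA came from 4 mice labelled wild type and 3 labelled as AMPKα1α2 double knockouts, which lack both catalytic subunits of AMP-activated protein kinase, an enzyme that responds to falling cellular energy. Both genotypes had a mixed C57/Bl6 and SV129 background, and the labels give no age, sex, exercise or promoter for the deletion. Values are log2 expression from 1 single-colour array per mouse, and precision is limited by how few arrays there are.

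Leucine, isoleucine and valine are broken down first in muscle and other peripheral tissues, because the liver has little of the enzyme that removes their amino group. Bcat2, the mitochondrial aminotransferase, turns them into branched-chain keto acids. The branched-chain keto acid dehydrogenase complex then commits the keto acids to oxidation. It is built of E1 (Bckdha and Bckdhb), E2 (Dbt) and E3 (Dld) subunits. Its kinase, Bckdk, switches it off by phosphorylating E1, and its phosphatase, Ppm1k, switches it on again. Separate branches follow, among them Ivd for leucine and Acad8, Hibch and Hibadh for valine. The valine intermediate 3-hydroxyisobutyrate, which Hibadh oxidizes, has been described as a signal from muscle that raises fatty acid uptake across endothelium.

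The probe sets of 7 of the 10 genes averaged lower in knockout than in wild type muscle, and those of 3 averaged higher. Of all genes, 53.3% averaged lower. The transcripts below wild type were both E1 subunits, the kinase, the phosphatase and the 3 enzymes of the valine branch, with log2 differences from -0.23 (Bckdha) to -0.11 (Hibadh). Bcat2, Dbt and Ivd lay above wild type by 0.14, 0.15 and 0.06. The median difference over the 10 genes was -0.132, against -0.005 over all genes. None of the 10 passed limma with Benjamini-Hochberg adjustment over all probe sets tested, where 0.0251% of all genes passed. At an unadjusted p under 0.05 there were 4 of 10, all lower, against 6.69% of all genes in that direction (3.93% were higher). The same 4, Bckdha, Bckdk, Acad8 and Hibadh, had all 3 knockout arrays below all 4 wild type arrays, which held for 5.33% of all genes (3.29% had all knockout arrays above). Without knockout replicate 1 there were 6 at an unadjusted p under 0.05, with Bckdhb and Hibch added. Without knockout replicate 2 or 3 there were 3, with Bckdha lost. The count over all 19938 genes, in either direction, moved the same way. It was 2118 with all arrays, 2687 without knockout replicate 1, and 1484 and 2007 without knockout replicates 2 and 3.

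The stretches before the transcript starts of these 4 genes are shown because their genotypes did not overlap. They are the 250 bases upstream of the start in RefSeq's mouse assembly GRCm38.p6, written 5′ to 3′ along the gene, with matches to any of 7 motifs in capitals.
Bckdk, chr7:127903823-127904072, plus strand: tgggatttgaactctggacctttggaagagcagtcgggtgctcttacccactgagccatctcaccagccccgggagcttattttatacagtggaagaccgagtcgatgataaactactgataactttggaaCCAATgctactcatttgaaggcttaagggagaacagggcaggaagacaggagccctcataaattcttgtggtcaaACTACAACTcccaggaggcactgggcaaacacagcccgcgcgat
Acad8, chr9:26999550-26999799, minus strand: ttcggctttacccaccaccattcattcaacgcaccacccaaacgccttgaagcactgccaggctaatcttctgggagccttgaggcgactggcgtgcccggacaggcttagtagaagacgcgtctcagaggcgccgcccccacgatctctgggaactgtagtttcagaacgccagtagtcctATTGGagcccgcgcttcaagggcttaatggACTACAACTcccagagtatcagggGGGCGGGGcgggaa
Hibadh, chr6:52640301-52640550, minus strand: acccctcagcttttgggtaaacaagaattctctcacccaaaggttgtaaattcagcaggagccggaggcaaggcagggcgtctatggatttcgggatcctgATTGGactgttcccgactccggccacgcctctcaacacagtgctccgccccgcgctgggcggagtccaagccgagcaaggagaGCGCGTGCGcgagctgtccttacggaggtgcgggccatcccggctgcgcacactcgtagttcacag
Bckdha, chr7:25658762-25659011, minus strand: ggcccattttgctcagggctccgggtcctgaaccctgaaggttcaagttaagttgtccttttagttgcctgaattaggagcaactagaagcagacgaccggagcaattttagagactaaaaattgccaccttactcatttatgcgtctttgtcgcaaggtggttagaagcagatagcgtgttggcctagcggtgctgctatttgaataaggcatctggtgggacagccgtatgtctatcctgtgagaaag

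Bckdk and Acad8 both hold ACTACAACT, part of a sequence associated with the factor ZNF143. It lies at -44 to -36 in Bckdk and at -38 to -30 in Acad8, counted from the start at 0. Windows of 300 bases (250 before to 50 after the start) were searched on both strands, and this motif occurred in 0.594% of 32851 such windows. Hibadh holds the NRF1 sequence GCGCNTGCG at -66 to -58, which occurred in 6.31% of windows. In Bckdha the only match was the YY1 sequence AAGATGGC (2.75% of windows), which starts 18 bases after the start and so is not in the printed stretch. The other capitals are CCAAT (NFY, 37.4% of windows), in Bckdk, Acad8 and Hibadh, and GGGCGGGG (SP/KLF, 17.6%), in Acad8. Hibadh also holds GGGCGGGG at 38 to 45 after the start, outside the printed stretch. AAGGTCA (ESRRA, 4.72%) and CCGGAAGT (GABPA, 3.89%) matched no window of the 10 genes. Windows were found for 9 of the 10 genes, 11 windows in all, and matches to different motifs overlapped in 0 cases. The motifs were chosen after the sequences were seen, and a match is a description of these letters alone.

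Arrays were looked at before the genes. Array medians lay between 7.50 and 7.58, and wild type arrays were more alike (r across genes of 0.9947 to 0.9975, genes not being independent replicates) than knockout arrays were (0.9914 to 0.9935). The 8 fast fibre markers, among them Myh4 and Ckm, read 13.16 to 14.18 in all arrays, near the highest value of any probe set, 14.65. Prkaa1 and Prkaa2, the targeted genes, differed by -0.51 ± 0.09 (SE) and -0.21 ± 0.07 (SE), with adjusted p of 0.12 and 0.39 in limma. The deleted exons are not known here, so these whole-transcript probe sets do not check the labels. Below, each difference is knockout minus wild type on the log2 scale with limma's standard error, and p-values are from limma, adjusted by Benjamini-Hochberg over all tested probe sets.

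**Figure D1:**
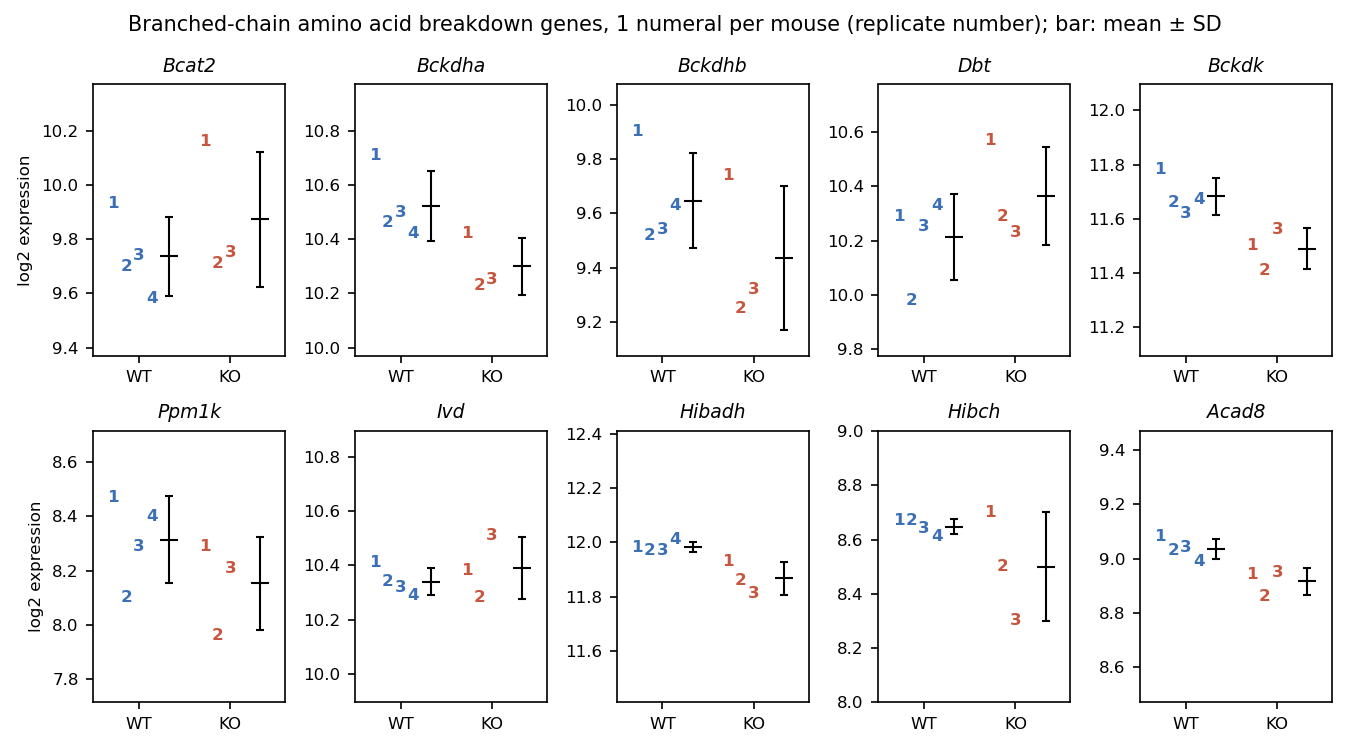
Log2 expression (vertical axes, each spanning 1 log2 unit) of the 10 genes in wild type (blue, n = 4) and knockout (red, n = 3) muscle, each numeral being 1 mouse by its replicate number and each bar the mean ± SD. Bckdha, Bckdk, Hibadh and Acad8 show no overlap of the genotypes, and replicate 1 is the highest array of its genotype in 7 of the 10 panels for wild type and in 7 for knockout.

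Bcat2 removes the amino group and makes the keto acids. It read 9.93, 9.70, 9.74 and 9.58 in wild type replicates 1 to 4 and 10.16, 9.71 and 9.75 in knockout replicates 1 to 3. Knockout replicate 1 stood above every other array, and the other knockout arrays lay inside the wild type range. The difference was 0.14 ± 0.13 (adjusted p = 0.76), with a 95% interval from -0.16 to 0.44. It was -0.006 without knockout replicate 1. Bcat1, the cytosolic aminotransferase, which is not one of the 10 genes, was dim and read 7.07 to 7.22 in wild type muscle and 7.21 to 7.67 in knockout arrays, a difference of 0.26 ± 0.10 (adjusted p = 0.46), or 0.13 without knockout replicate 2.

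Bckdha encodes the E1α subunit, the part of the complex that the kinase phosphorylates. It read 10.71, 10.46, 10.50 and 10.42 in wild type muscle and 10.42, 10.23 and 10.25 in knockout arrays. No knockout array reached the wild type range, but the gap between the lowest wild type and the highest knockout array was 0.002. The difference was -0.23 ± 0.08, or 1.17-fold lower (adjusted p = 0.41).

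Bckdhb, the E1β partner, read 9.90, 9.52, 9.54 and 9.63 in wild type muscle and 9.74, 9.25 and 9.32 in knockout arrays. Knockout replicates 2 and 3 lay below every wild type array, and knockout replicate 1 lay above 3 of the 4. The difference of -0.21 ± 0.14 was close to that of Bckdha but within the spread between arrays (adjusted p = 0.68). Without knockout replicate 1 it was -0.36, and without wild type replicate 1 it was -0.13.

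Dbt, the E2 core that carries the acyl group on lipoic acid, went the other way from both E1 subunits. It read 10.29, 9.98, 10.25 and 10.33 in wild type muscle and 10.57, 10.29 and 10.23 in knockout arrays. Only knockout replicate 1 lay above the wild type range, and wild type replicate 2 was the lowest array. The difference was 0.15 ± 0.11 (adjusted p = 0.71), with a 95% interval from -0.11 to 0.42, and it was 0.05 without knockout replicate 1 and 0.07 without wild type replicate 2.

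Dld, the E3 subunit, is shared with the pyruvate and oxoglutarate dehydrogenase complexes. It read 10.91, 10.94, 10.92 and 10.96 in wild type muscle and 10.81, 10.81 and 10.64 in knockout arrays, with no overlap. The difference was -0.18 ± 0.05 (adjusted p = 0.28). E1 and E3 transcripts thus averaged below wild type and the E2 transcript above it, and no subunit passed the adjusted test.

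The ratio of the aminotransferase to the E1α subunit varied little between wild type arrays and was higher, and more variable, in knockout arrays. The log2 ratio of Bcat2 over Bckdha, set to a mean of 0 in wild type, was 0.01, 0.02, 0.03 and -0.06 there. In knockout arrays it was 0.53, 0.27 and 0.29, a mean of 0.36 ± 0.14 (SD, n = 3) against a wild type SD of 0.04 (n = 4). The highest value came from knockout replicate 1, the array in which Bcat2 itself stood highest. The ratio of Dbt over Bckdha averaged 0.38 ± 0.08 (SD, n = 3) in the knockout, with wild type arrays from -0.18 to 0.22 and knockout arrays from 0.30 to 0.47. A ratio within an array does not move with a shift shared by all genes. It shows unequal differences between 2 transcripts and not which of them differed. These pairs were chosen after the values were seen, so no test is given.

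**Figure D2:**
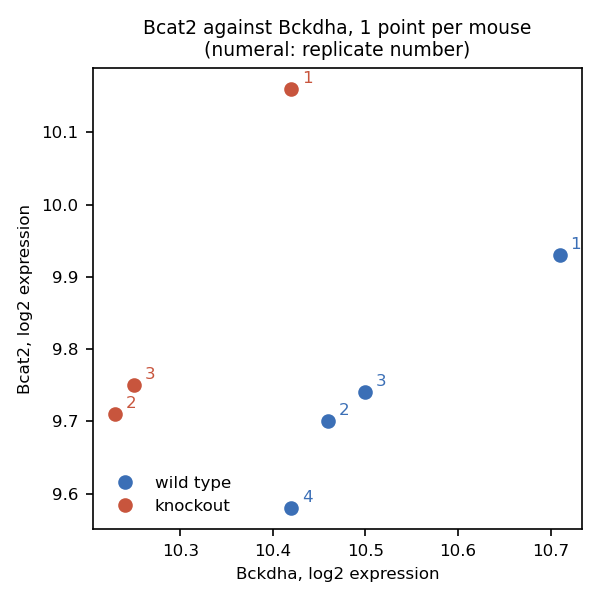
Log2 expression of Bcat2 (vertical axis) against Bckdha (horizontal axis), 1 point per mouse with its replicate number, in wild type (blue, n = 4) and knockout (red, n = 3) muscle. Relative to Bckdha the knockout points lie above the wild type points, by a mean log2 ratio of 0.36.

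The kinase that silences the complex had the smallest unadjusted p of the 10 genes. Bckdk read 11.78, 11.66, 11.62 and 11.67 in wild type muscle and 11.50, 11.41 and 11.56 in knockout arrays. The genotypes did not overlap, with a distance of 0.062 between the nearest arrays. The difference was -0.19 ± 0.05, or 1.14-fold lower, with a 95% interval from -0.32 to -0.07 (adjusted p = 0.28). Leaving out single arrays gave values between -0.23 and -0.15.

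Ppm1k, the phosphatase that counters it, read 8.47, 8.10, 8.29 and 8.40 in wild type muscle and 8.29, 7.96 and 8.21 in knockout arrays. The ranges overlapped, and only knockout replicate 2 lay below all wild type arrays. The difference was -0.16 ± 0.11 (adjusted p = 0.68), and it was -0.07 without knockout replicate 2. The log2 ratio of kinase over phosphatase, with wild type set to 0, was -0.16, 0.08 and -0.01 in knockout arrays, against -0.10 to 0.19 in wild type arrays. Knockout replicate 1 lay below the wild type range of this ratio and the other knockout arrays inside it, and the wild type SD was 0.13 (n = 4). The log2 ratio of the kinase to its substrate subunit Bckdha was -0.08, 0.03 and 0.16 in knockout arrays against -0.08 to 0.09 in wild type arrays, so knockout replicate 3 lay above the wild type range.

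In the valine branch, the 3 genes all averaged below wild type. Acad8, the isobutyryl-CoA dehydrogenase, read 9.08, 9.03, 9.04 and 8.99 in wild type muscle and 8.94, 8.86 and 8.95 in knockout arrays. The genotypes did not overlap, and the difference was -0.12 ± 0.04 (adjusted p = 0.33).

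Hibch, which frees 3-hydroxyisobutyrate from coenzyme A, read 8.67, 8.67, 8.64 and 8.61 in wild type muscle and 8.70, 8.50 and 8.30 in knockout arrays. Knockout replicate 1 was the highest of all 7 arrays and knockout replicate 3 the lowest. The SD was 0.20 (n = 3) in the knockout and 0.03 (n = 4) in wild type, and the difference of -0.14 ± 0.09 (adjusted p = 0.64) was -0.04 without knockout replicate 3. It was -0.24 when knockout replicate 1 was left out.

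Hibadh, the dehydrogenase of 3-hydroxyisobutyrate, read 11.98, 11.97, 11.97 and 12.01 in wild type muscle and 11.93, 11.86 and 11.81 in knockout arrays. The wild type arrays were within 0.04 of each other, and all knockout arrays lay below them. The difference was -0.11 ± 0.04, or 1.08-fold lower (adjusted p = 0.35). A second, dim probe set of Hibadh read 4.85 to 4.96 in wild type muscle and 4.95 to 5.09 in knockout arrays and differed by 0.09 ± 0.05. The mean of both probe sets differed by -0.01. Another 2 probe sets carry the symbol of a gene among the 10 together with another symbol and were not used.

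Ivd, the isovaleryl-CoA dehydrogenase of the leucine branch, read 10.41, 10.34, 10.32 and 10.29 in wild type muscle and 10.38, 10.28 and 10.51 in knockout arrays. Knockout replicate 1 lay inside the wild type range, replicate 2 just below it and replicate 3 above it. The difference was 0.06 ± 0.06 (adjusted p = 0.79), with a 95% interval from -0.08 to 0.19, and it was -0.0046 without knockout replicate 3. Ivd and Acad8 belong to the same family of acyl-CoA dehydrogenases, and the difference between them was not tested.

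The spread between arrays of 1 genotype was larger in the knockout for most of the 10 genes. The SD was larger in knockout than in wild type for 9 of 10, Bckdha being the exception, and for 60.1% of all genes. Knockout replicate 1 was the highest knockout array for 7 genes and knockout replicate 2 the lowest for 7. In wild type, replicate 1 was the highest for 7. Averaged over the 10 genes after centring each on its mean over all 7 arrays, the level was 0.144, -0.034, 0.015 and 0.017 for the wild type mice and 0.087, -0.141 and -0.088 for the knockouts. Knockout replicate 1 thus lay above 3 of the 4 wild type arrays in this average.

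Of 14 further breakdown genes measured, 11 averaged lower and 3 higher, with a median of -0.101. None passed the adjusted test in limma, and at an unadjusted p under 0.05 there were 4 lower and 1 higher. Acat1, the thiolase that ends the isoleucine branch, read 11.52, 11.59, 11.64 and 11.53 in wild type muscle and 11.40, 11.31 and 11.10 in knockout arrays, a difference of -0.30 ± 0.07 (adjusted p = 0.24). Echs1, the enoyl-CoA hydratase shared with fatty acid oxidation, read 10.51, 10.30, 10.31 and 10.26 against 10.25, 9.89 and 9.90, a difference of -0.33 ± 0.10 (adjusted p = 0.35). Neither gene overlapped between the genotypes, and both also serve pathways other than branched-chain amino acid breakdown.

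The propionyl-CoA steps take up the carbon of valine and isoleucine. The carboxylase subunits Pcca and Pccb differed by -0.18 ± 0.10 and -0.18 ± 0.07, with Pcca at -0.08 without knockout replicate 3, and the epimerase Mcee by -0.11 ± 0.05. Pccb alone of these did not overlap between the genotypes. Aldh6a1, which follows Hibadh in the valine branch, differed by -0.23 ± 0.11 (adjusted p = 0.51), or -0.14 without knockout replicate 3.

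The other genes of the leucine and isoleucine branches had smaller differences. The carboxylase subunits Mccc1 and Mccc2 differed by 0.02 ± 0.17 and -0.08 ± 0.08, and the hydratase Auh by -0.09 ± 0.07. The dehydrogenases Acadsb and Hsd17b10, of the isoleucine branch, differed by 0.01 ± 0.09 and -0.02 ± 0.03. Mccc1 and Acadsb turned sign under other settings, with Mccc1 at -0.10 without wild type replicate 2 and Acadsb at -0.06 without knockout replicate 1. Oxct1, which uses the ketone bodies that leucine yields, differed by -0.09 ± 0.06.

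**Figure D3:**
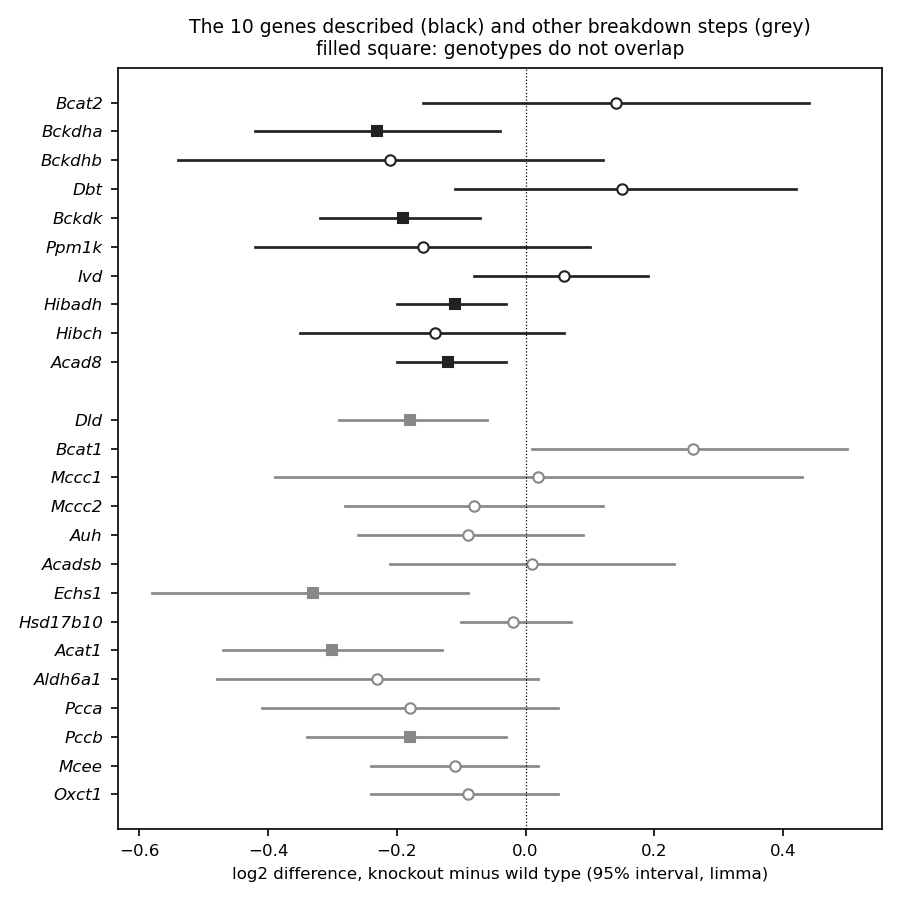
Log2 difference, knockout minus wild type (horizontal axis), of the 10 genes (black) and of 14 further breakdown genes (grey), with limma's 95% interval over 4 wild type and 3 knockout arrays. Filled squares mark genes whose genotypes do not overlap, 4 of the 10 and 4 of the 14, all below 0. Of all genes, 5.33% had no overlap with knockout lower and 3.29% with knockout higher. For Bckdha the gap between the nearest arrays was 0.002.

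Transport into the cell and into mitochondria was read from 6 genes. Slc25a44, the mitochondrial carrier of branched-chain amino acids, differed by -0.12 ± 0.05 (adjusted p = 0.46). At the plasma membrane Slc7a5 differed by 0.19 ± 0.14, or 0.05 without knockout replicate 2, its partner Slc3a2 by 0.00 ± 0.12, and Slc43a1 and Slc43a2 by 0.06 ± 0.12 and 0.09 ± 0.08. Slc43a1 turned sign without knockout replicate 2, at -0.06, Slc3a2 lay between -0.11 without that array and 0.11 under array weights, and Slc43a2 was 0.03 without knockout replicate 3. Slc7a8, another large neutral amino acid transporter, read 8.17, 8.79, 8.07 and 8.04 in wild type muscle and 8.67, 8.94 and 8.62 in knockout arrays, a difference of 0.48 ± 0.19 (adjusted p = 0.45). Wild type replicate 2 lay inside the knockout range for Slc7a8, and 0 of the 6 passed the adjusted test in limma, with 1 lower and 1 higher at an unadjusted p under 0.05.

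The amino group that Bcat2 takes off passes to glutamate and then to aspartate, alanine or glutamine. Among these acceptors the aspartate aminotransferases lay below wild type and glutamine synthetase above it. Got1, the cytosolic form, read 12.71, 12.81, 12.77 and 12.63 in wild type muscle and 12.46, 12.27 and 12.27 in knockout arrays. The genotypes did not overlap, and the difference of -0.40 ± 0.06, or 1.32-fold lower, was larger than that of any of the 10 genes (adjusted p = 0.11). Got2, the mitochondrial form, differed by -0.17 ± 0.04 (adjusted p = 0.26), also without overlap.

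Glul, glutamine synthetase, read 11.66, 12.19, 11.90 and 11.79 in wild type muscle and 12.30, 12.73 and 12.15 in knockout arrays. Wild type replicate 2 lay above knockout replicate 3, and the difference was 0.51 ± 0.17 (adjusted p = 0.38), or 0.34 without knockout replicate 2. Gpt2, mitochondrial alanine aminotransferase, differed by -0.34 ± 0.15, or -0.16 without knockout replicate 3, and its cytosolic counterpart Gpt by 0.00 ± 0.05. Glutamate dehydrogenase, Glud1, differed by -0.09 ± 0.04. None of the 6 acceptor genes passed the adjusted test in limma, with 2 lower and 1 higher at an unadjusted p under 0.05.

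**Figure D4:**
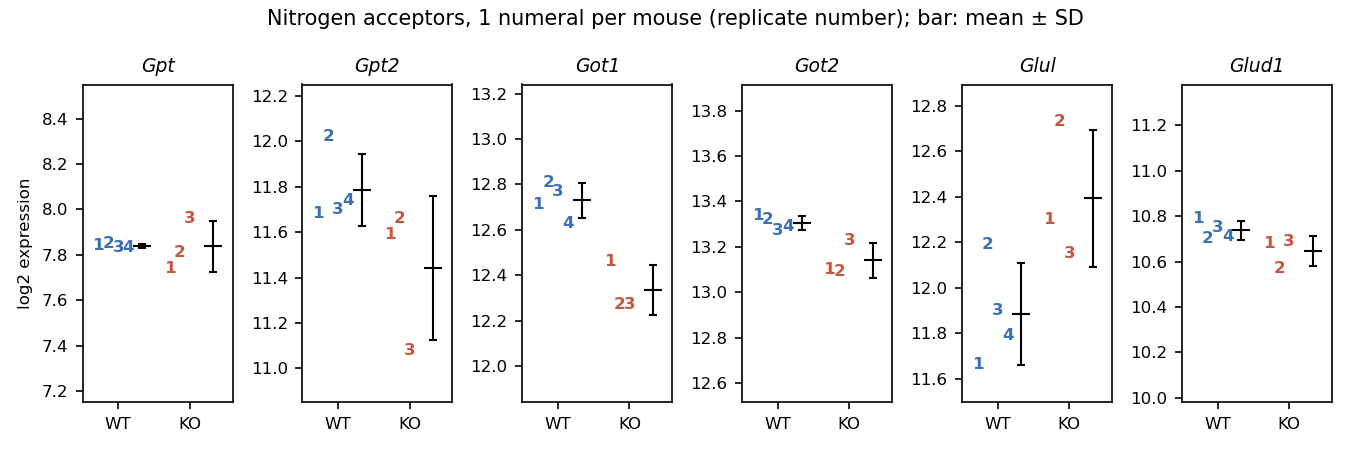
Log2 expression (vertical axes, each spanning 1.4 log2 units) of 6 genes that take up amino nitrogen, in wild type (blue, n = 4) and knockout (red, n = 3) muscle, each numeral being 1 mouse by its replicate number and each bar the mean ± SD. Got1, Got2, Gpt2 and Glud1 lie lower in every knockout array than in every wild type array. Glul averages 0.51 higher with 1 wild type array inside the knockout range.

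Known regulators of these genes were read as well. Klf15, a factor that drives muscle amino acid breakdown, differed by 0.04 ± 0.08, and the coactivators Ppargc1a and Ppargc1b by -0.09 ± 0.24 and 0.00 ± 0.08. Ppargc1a read 11.26 in knockout replicate 2 and 10.43 and 10.14 in the other knockout arrays, against 10.63 to 10.81 in wild type, and its difference was -0.42 without knockout replicate 2 and 0.17 under array weights. The nuclear receptors Esrra, Ppara and Ppard differed by -0.11 ± 0.04, -0.22 ± 0.09 and 0.00 ± 0.06, with adjusted p of 0.40, 0.45 and 0.99.

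The 10 genes were set beside other mitochondrial genes measured in the same arrays. Of 14 respiratory chain and citrate synthase genes, 14 averaged lower, with a median of -0.222, and 13 had no overlap. Of 6 subunits of the pyruvate and oxoglutarate dehydrogenase complexes, 6 averaged lower, with a median of -0.162, and 5 had no overlap. Of 5 acyl-CoA dehydrogenases listed for fatty acids, 5 averaged lower, with a median of -0.20, and 3 had no overlap. Acadvl differed most, by -0.43 ± 0.05 (adjusted p = 0.084). Acad9, listed for its role in complex I assembly, differed least, by -0.07 ± 0.03. Over all genes, 5.33% had no overlap with knockout lower. No gene of these 3 lists passed the adjusted test in limma. The 10 genes, with 7 lower and a median of -0.132, included 3 above wild type, where these 3 lists had none. Other lists had such genes too, 3 of the 14 further breakdown genes and 4 of 7 pyruvate dehydrogenase kinases and phosphatases. Of the 3 among the 10 genes, Bcat2 was at -0.006 without knockout replicate 1 and Ivd at -0.0046 without knockout replicate 3. Differences between the lists were not tested.

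Markers of other cells were read in the same arrays. Among the marker lists given here, only the macrophage list held genes that passed the adjusted test in limma, 2 of 7. Adipocyte markers averaged lower for 5 of 6, with centred list levels of -0.018 to 0.255 in wild type and -0.176 to -0.028 in knockout arrays. Endothelial markers averaged lower for 7 of 7 (0.05 to 0.237 against -0.22 to -0.12). Macrophage markers averaged higher for 7 of 7 (-0.42 to -0.13 against 0.293 to 0.387), slow fibre markers for 6 of 7 (-0.303 to -0.112 against -0.094 to 0.615) and fibro-adipogenic progenitor markers for 5 of 6 (-0.371 to 0.046 against -0.029 to 0.385). Satellite cell markers averaged higher for 5 of 5 (-0.077 to -0.003 against 0.011 to 0.119) and red cell markers for 1 of 2. Fast fibre markers split 4 and 4, from -0.03 to 0.028 against -0.004 to 0.011. They read 13.16 to 14.18, near the highest value of 14.65, so a difference in them could be understated. The part of these cell types in the differences of the 10 genes was not tested. In whole muscle fewer cells of a type and less RNA per cell cannot be told apart.

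**Figure D5:**
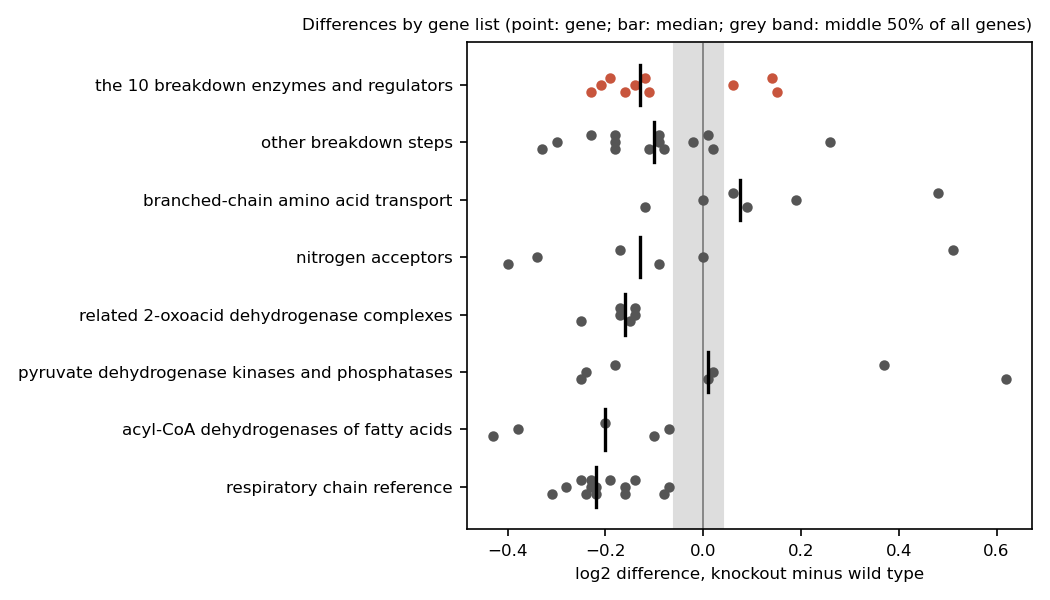
Log2 difference, knockout minus wild type (horizontal axis), of each gene (points) in 8 gene lists, with the list median (black bar) and the middle 50% of all genes (grey band). The 10 genes (red) spread from -0.23 to 0.15 around a median of -0.132, while all 14 respiratory chain and citrate synthase genes lie below 0.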

How the data were processed

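Total RNA (100 ng) from each muscle was extracted with TRIzol and labelled with biotin, per the labels' protocols. The deposited table was taken to hold log2 expression because its values ran from 4.41 to 14.65, above the 11.09 that a natural log of 16-bit values can reach. The base is thus inferred. For background, scaling and summarization the methods were not given in the sources used here, and any scaling between arrays hides a shift common to all genes. Of 28856 probe sets, 21789 had 1 gene symbol in GEO's platform annotation and were tested, 1621 had several and 5446 were unnamed here. Each gene was represented by its probe set with the highest mean over all 7 arrays, without regard to genotype.

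Knockout was compared with wild type in limma 3.58.1 (R 4.3.3; lmFit and eBayes, no covariate), with a threshold of 0.05 on the Benjamini-Hochberg adjusted p over all tested probe sets and no filter on dim ones. The fit was tested on simulated data with independent noise. The differences planted there were larger than those of the 10 genes, so it does not show how the fit performs at their size. Genes named were the 10 genes, the genes of the related lists, the targeted genes and the 5 genes most alike in pattern. The 10 genes and the lists were chosen with earlier results of these data known. The labels count mice but name no batch. Alternatives were array weights, quantile normalization, leaving out dim probe sets, another variance prior, median centring, all probe sets, the mean of a gene's probe sets, a replicate block and leaving out each array.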

Additional observations from a re-analysis of the deposited data

Results flagged for a closer look

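Among 62 named genes, 4 had a wild type array whose gap to its nearest neighbour relative to the range of the 4 arrays exceeded Dixon's 95% critical value, a rule by which chance picks about 1 group in 20. Hibadh read 12.01 in wild type replicate 4 and 11.97 to 11.98 in the others, a small step in a very narrow group. Slc7a8 read 8.79 in wild type replicate 2 and 8.04 to 8.17 in the others, and its difference was 0.65 without that array. Pdk4, a pyruvate dehydrogenase kinase induced by fasting, read 11.29 in wild type replicate 1 and 12.66 to 12.89 in the others. Prkaa2 read 12.03 in wild type replicate 2 and 12.28 to 12.31 in the others.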

How the results depend on the processing

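Under the alternatives, 0 of the 10 genes and 0 of the related genes passed the adjusted test in limma. The unadjusted count of the 10 genes ran from 3 to 6, genes with no overlap from 3 to 6, and their median difference from -0.172 to -0.102. The 6 with no overlap came from the fit without knockout replicate 1. With fewer knockout arrays any gene is less likely to overlap, and the share over all genes was not computed there. Between 7 and 8 were lower. The 7 lower genes were below 0 in every fit run, and Dbt above it. The sign turned for Bcat2 (-0.006 without knockout replicate 1, and 0.22 without knockout replicate 2) and Ivd (-0.0046 without knockout replicate 3, and 0.11 without knockout replicate 2). Bckdk overlapped after a further quantile normalization and Bckdha after median centring. Hibadh overlapped for the mean of its probe sets. These scalings moved the median of all genes to -0.009 and -0.022. The count of all genes passing, 5, lay between 0 and 14 in the fits that left out an array. It was 0 where the array was wild type replicate 1, 3 or 4, 1 for wild type replicate 2, 14 for knockout replicate 1 and 2 for knockout replicate 2. At an unadjusted p under 0.05 there were then 1484 to 2687 genes. With the replicate number as a block over replicates 1 to 3, 0 genes passed in limma (1653 at an unadjusted p under 0.05, and 5 of the 10 genes, against 4, with Bckdhb and Ppm1k gained and Hibadh lost). Same-numbered arrays correlated at 0.266, 0.136 and -0.146 in their deviations from the genotype means, and differently numbered arrays at -0.29 to 0.116. These few values do not settle whether the numbers pair the mice, and the main fit used no pairing.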

Other observations

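The pyruvate dehydrogenase kinases, relatives of Bckdk, did not move as 1 group. Pdk2 differed by -0.24 ± 0.06 and Pdk3 by 0.37 ± 0.10, both without overlap of the genotypes, and Pdk1 by 0.01 ± 0.10 (-0.08 without wild type replicate 2). Pdk4 differed by 0.62 ± 0.41, or 0.25 without wild type replicate 1. Pdpr, the regulatory subunit of the pyruvate dehydrogenase phosphatase, differed by -0.25 ± 0.04 without overlap (adjusted p = 0.12 in limma), while the catalytic subunits Pdp1 and Pdp2 differed by -0.18 ± 0.19 (-0.01 without knockout replicate 2, and -0.35 under array weights) and 0.02 ± 0.06 (-0.03 without knockout replicate 1). None of these 7 genes passed the adjusted test.

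Outside all lists, the 5 genes whose values over the 7 arrays were most like the mean of the 10 genes were Ube2e2 (Pearson's r = 0.996), Kifap3 (0.992), 4930430F08Rik (0.985), Anapc4 (0.983) and Metap2 (0.977). They were picked for this likeness from all genes, so the values are a description. Their own differences between the genotypes ran from -0.11 to -0.07, and each overlapped.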
